A study of Homo sapiens with 4 samples.

Results

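The genes described here are the stathmins STMN1 and STMN3, the alpha-tubulins TUBA1A, TUBA1B and TUBA1C, the beta-tubulins TUBB, TUBB2A, TUBB3 and TUBB4B, and the gamma-tubulin TUBG1. They were chosen by name, 10 of the 15357 genes in the tables, after STMN1 had been seen to be lower in the shCHD7_2 samples of these same data. The question was whether the lower STMN1 went with changes of the tubulin mRNAs. Because the difference between the groups chose them, that difference, its errors and the counts of genes that passed a threshold are given for these 10 genes as a description, and nothing is supported with them.

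The samples were RKO cells, a human colorectal cancer cell line, grown in Eagle's Minimum Essential Medium with fetal bovine serum. The 2 vector samples carried a lentivirus with a control shRNA and the 2 shCHD7_2 samples a lentivirus with an shRNA against CHD7, a chromatin remodeller, so all 4 samples were infected cells with stable expression of an shRNA. RNA was extracted with Trizol and polyadenylated transcripts were captured on oligo-dT beads before sequencing. A single hairpin was used against CHD7, so lower CHD7 and any other effect of that hairpin cannot be told apart. Nothing in the labels says whether the samples of a group came from separate infections or cultures, and the errors and adjusted p-values then measure only the spread between these samples, which may be technical. In such bulk samples, fewer cells of a type and less RNA per cell cannot be told apart.

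Microtubules are polymers of alpha- and beta-tubulin dimers, and the gamma-tubulin ring complex seeds them at centrosomes and spindles. Stathmins bind free tubulin dimers, keep them from joining the polymer and promote the switch of microtubule ends from growth to shrinkage; STMN1, also called oncoprotein 18, is abundant in dividing cells and is switched off by phosphorylation in mitosis. Cells also sense their free tubulin: when unpolymerised dimers accumulate, TTC5 recognises the first residues of alpha- and beta-tubulin chains as they leave the ribosome and, with SCAPER and CNOT11 of the CCR4-NOT complex, starts the decay of the tubulin mRNAs.

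The coding starts that this sensing depends on are shown because they separate the genes that carry a tubulin start from those that do not. Each line gives the 30 coding bases from the start codon, 5′ to 3′, with the start codon and the next 3 codons in capitals, read from the transcripts of GENCODE 29 on GRCh38.
TUBA1A, TUBA1B and TUBA1C: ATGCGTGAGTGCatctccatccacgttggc
TUBB: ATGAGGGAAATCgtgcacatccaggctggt
TUBB2A: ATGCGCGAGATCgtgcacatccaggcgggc
TUBB3: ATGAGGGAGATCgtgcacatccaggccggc
TUBB4B: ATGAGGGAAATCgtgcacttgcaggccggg
TUBG1: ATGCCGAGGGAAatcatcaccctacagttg
STMN1: ATGGCTTCTTCTgatatccaggtgaaagaa
STMN3: ATGGCCAGCACCatttccgcctacaaggag
The 3 alpha-tubulins share all 30 bases, and TUBG1 and the stathmins have other codons after the start codon. The beta-tubulins differ from one another in bases within them, but their capitalised codons encode the same residues. Over whole coding sequences, TUBA1A and TUBA1B were 97.2% identical, TUBA1B and TUBA1C 96.8%, and TUBA1A and TUBA1C 95.9%. The beta-tubulin pairs ranged from 81.7% for TUBB and TUBB3 to 87.7% for TUBB2A and TUBB3. STMN1 and STMN3 were 54.4% identical.

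This likeness bears on how well reads could be assigned. Of the 50-base windows of its transcript, TUBA1B shared 62.7% with transcripts of genes elsewhere and TUBA1A 33.5%. For each of them the other was the gene that shared the most windows. TUBB2A shared 65.5% and TUBG1 29.9%, the genes sharing the most windows being TUBB2B and TUBG2. The share was 20.0% for TUBA1C, 18.2% for TUBB, 9.89% for TUBB4B, 8.90% for TUBB3, 0.997% for STMN3 and 0 for STMN1. These shares leave out genes that overlap the locus of the gene itself. With those genes counted, the share was 41.7% for TUBA1A and 25.1% for TUBA1C. The deposited counts of TUBA1A, TUBA1B, TUBA1C, TUBB2A and TUBG1 were not whole numbers in any of the 4 samples, so reads had been divided between them and other genes, and the values of these 5 single rows are uncertain to that extent. TUBB3 also lies within a read-through gene, with which most of its windows are shared, and the TUBA1A and TUBA1C loci overlap on opposite strands; whether strand was used in counting is not given in the sources used here.

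The deposited counts summed to between 15734679 and 16068650 per sample, and the 10 most abundant genes took 5.16% to 5.59% of them. After removal of genes with low counts, 11955 genes were tested, all 10 stathmin and tubulin genes among them, and calls needed both an adjusted p under 0.05 and a change of 1.5-fold or more. Levels are given as CPM, counts scaled to the size of the library, or as FPKM, fragments scaled to transcript length and library size, where genes are compared with each other. Differences are log2 fold changes of shCHD7_2 against vector. Of the 11955 genes, 344 were called, 2.88%: 180 higher (1.51%) and 164 lower (1.37%). The median difference over all tested genes was 0.001 and the central 95% of the genes lay between -0.54 and 0.62.

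CHD7, the target of the shRNA, had 85.4 and 91.0 CPM in the vector samples and 55.5 and 50.1 CPM in the shCHD7_2 samples. Both shCHD7_2 samples were below both vector samples, as their labels state. The log2 fold change was -0.74 (SE 0.0884, adjusted p = 4.15e-06, edgeR's quasi-likelihood test), so that 0.599 times the vector level remained in CPM. In FPKM the means were 8.28 in vector and 5.50 in shCHD7_2. Limma was run on log2 FPKM after adding a pseudocount of 1 or 0.1, which makes log2 fold changes smaller in size. It put CHD7 under the 1.5-fold threshold in each of 3 settings (-0.51 to -0.58). In the setting without a filter on low values, limma gave an adjusted p of 0.104. Of the colon epithelial markers, KRT18, KRT8, EPCAM and CDX2 were at 1 FPKM or more in every sample, KRT20 and CDH1 were at or near 0, and KRT19 and VIL1 had no row in the tables. The summed markers were 75.2 to 81.2 FPKM in vector and 81.6 to 90.3 FPKM in shCHD7_2. Of 10 neuronal markers, which bear on TUBB3 and STMN3, 6 had a row, and they summed to 0.17 to 0.40 FPKM; 2 of 6 fibroblast markers had a row and summed to 0.01 to 0.10 FPKM. Of 5 leukocyte markers, CD14 was at or near 0 and CD68, a lysosomal protein that epithelial cell lines also express, was at 495 and 529 FPKM in vector and 602 and 611 FPKM in shCHD7_2 (log2 fold change 0.20, adjusted p = 0.0624). The part of these markers in the results was not tested.

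STMN1 (chr1:25884181-25906991, minus strand, GRCh38) is the stathmin that most dividing cells express. It had 300.4 and 294.1 CPM in the vector samples and 112.4 and 119.0 CPM in the shCHD7_2 samples. The means were 297.3 ± 4.47 and 115.7 ± 4.65 CPM (SD, n = 2 each), and both shCHD7_2 samples were below both vector samples. The log2 fold change was -1.36 (SE 0.0762, 95% interval -1.52 to -1.20), a level 2.57-fold lower, and the mean CPM decreased by 61.1%. It was the 15th lowest log2 fold change of the 11955 genes, and it was lower than that of CHD7 itself; the difference between these was not tested. These are the values that chose the 10 genes, so the values, their error and their interval are a description only. The counts behind them were 4664 and 4643 in vector and 1803 and 1899 in shCHD7_2, with no reads divided among copies. Leaving out any 1 sample gave -1.40 to -1.32.

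STMN3 (chr20:63639705-63657682, minus strand), a stathmin relative with a membrane anchor that is best known from neurons, was at far lower levels. It had 22.2 and 19.7 CPM in vector and 16.6 and 21.6 CPM in shCHD7_2. The shCHD7_2 samples lay on either side of the lower vector sample, and the groups overlapped. The log2 fold change was -0.13 (SE 0.127, 95% interval -0.40 to 0.13). Without shCHD7_2 replicate 1 it was 0.04, and over all left-out samples it ranged from -0.33 to 0.04, so its direction rested on 1 sample. STMN2 and STMN4 had no row in the tables. On the FPKM scale STMN1 made up 96.0 ± 0.267% of stathmin mRNA in vector and 91.0% in shCHD7_2, and stathmin FPKM summed to 226.5 and 220.6 in vector and 91.5 and 97.4 in shCHD7_2.

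**Figure D1:**
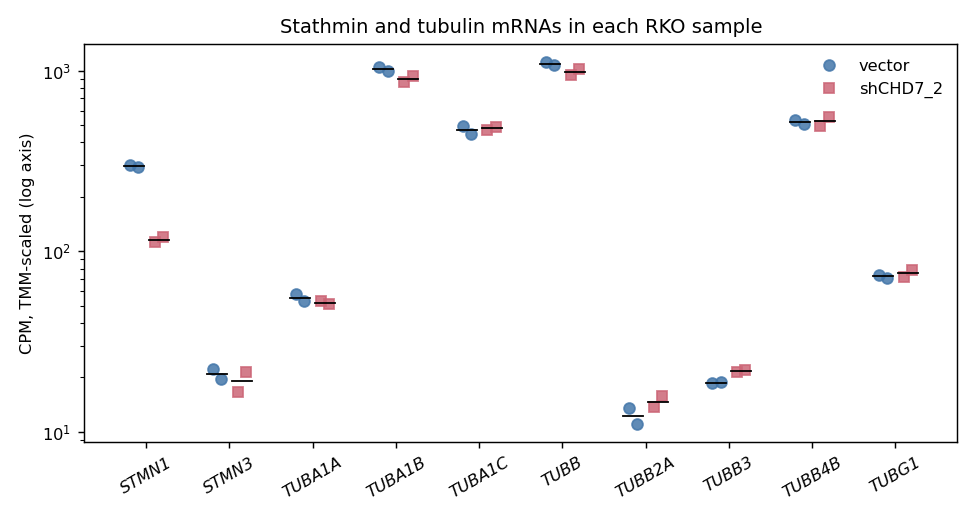
Level of each stathmin and tubulin mRNA in each RKO sample, in TMM-scaled CPM on a log axis; circles are the 2 vector samples, squares the 2 shCHD7_2 samples and black bars the group means. STMN1 lay at 294.1 to 300.4 CPM in vector and at 112.4 to 119.0 CPM in shCHD7_2. The points of each tubulin lay closer together, those of TUBB2A (11.0 to 15.7 CPM) the least so.

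None of the 8 tubulins was called, by edgeR, DESeq2 or limma, against 2.88% of all tested genes; at an unadjusted p under 0.05 there were 2, TUBA1B and TUBB, against 25.4% of all tested genes. The tubulins' median log2 fold change was 0.02, with 5 above and 3 below 0, beside 0.001 for all tested genes. With the stathmins, the median was -0.04 and 1 of 10 was called. In 5 of the 10 genes the samples of the groups did not overlap, STMN1, TUBA1B and TUBB with shCHD7_2 below and TUBB2A and TUBB3 with shCHD7_2 above, beside 53.7% of all tested genes, 27.3% with shCHD7_2 below and 26.4% with shCHD7_2 above. Since the contrast was used in choosing the genes, nothing is read from these counts. The 95% intervals of the 8 tubulins, which are not adjusted for their number, ran from -0.33 at the lowest to 0.56 at the highest and each lay inside a 1.5-fold change in either direction. Their width rests on variances that edgeR pooled in part over all tested genes, not on the samples of each gene alone.

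Among the alpha-tubulins, TUBA1B (chr12:49127782-49131397, minus strand) is the most widely expressed isotype. It had 1046 and 987.4 CPM in vector and 859.7 and 927.5 CPM in shCHD7_2. Both shCHD7_2 samples were below both vector samples, by an amount similar to the distance between samples of a group. This was a log2 fold change of -0.19 (SE 0.0706, 95% interval -0.33 to -0.04), and it ranged from -0.24 to -0.14 when 1 sample was left out.

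TUBA1C (chr12:49188736-49274603, plus strand), a further isotype of dividing cells, had 490.8 and 446.7 CPM in vector and 471.0 and 488.8 CPM in shCHD7_2. The shCHD7_2 samples both lay between the vector samples. Their log2 fold change was 0.03 (SE 0.0731, 95% interval -0.12 to 0.19), with values of either sign when 1 sample was left out.

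TUBA1A (chr12:49184796-49189324, minus strand), the main alpha-tubulin of developing neurons, had 57.6 and 52.6 CPM in vector and 52.9 and 51.0 CPM in shCHD7_2. The groups overlapped narrowly, with a log2 fold change of -0.09 (SE 0.0887, 95% interval -0.27 to 0.10).

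Of the beta-tubulins, TUBB (chr6:30720201-30725426, plus strand) is the general isotype of dividing cells. It had 1113 and 1067 CPM in vector and 948.8 and 1016 CPM in shCHD7_2. As with TUBA1B, both shCHD7_2 samples were below both vector samples, and the lower sample of the shCHD7_2 group was the same for both genes. The log2 fold change was -0.15 (SE 0.0695, 95% interval -0.29 to -0.01).

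TUBB4B (chr9:137241213-137243707, plus strand), a ubiquitous isotype also found in cilia, had 533.4 and 508.3 CPM in vector and 491.2 and 553.8 CPM in shCHD7_2. The shCHD7_2 samples were the lowest and the highest of the 4, and the log2 fold change was 0.01 (SE 0.0748, 95% interval -0.15 to 0.16).

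TUBB3 (chr16:89921392-89938761, plus strand), class III beta-tubulin, is a neuronal isotype that many carcinoma cells also express. It had 18.6 and 18.9 CPM in vector and 21.5 and 22.0 CPM in shCHD7_2. The samples of each group lay close together and those of shCHD7_2 were the higher, at a log2 fold change of 0.22 (SE 0.110, 95% interval -0.01 to 0.44), and it ranged from 0.20 to 0.23 when 1 sample was left out.

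TUBB2A (chr6:3153669-3157526, minus strand), another isotype abundant in neurons, had 13.5 and 11.0 CPM in vector and 13.7 and 15.7 CPM in shCHD7_2. The shCHD7_2 samples were the higher, the lower of them only just. The log2 fold change was 0.26 (SE 0.141, 95% interval -0.03 to 0.56), and it ranged from 0.13 to 0.41 when 1 sample was left out. Among the 8 tubulins chosen, it had the largest difference, the largest error and the fewest reads.

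TUBG1 (chr17:42609676-42615234, plus strand), the gamma-tubulin that nucleates microtubules, had 74.1 and 70.9 CPM in vector and 71.8 and 78.7 CPM in shCHD7_2. The groups overlapped, and the log2 fold change was 0.05 (SE 0.0862, 95% interval -0.13 to 0.23).

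**Figure D2:**
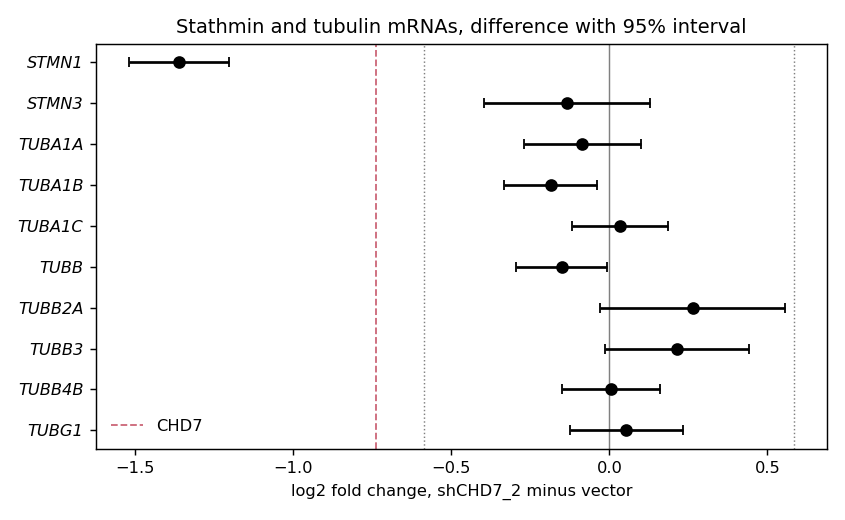
Log2 fold change of shCHD7_2 against vector for each stathmin and tubulin mRNA, with bars for the 95% interval; the dashed line is CHD7 at -0.74 and the dotted lines are a 1.5-fold change in either direction. STMN1 lay at -1.36, below CHD7, while the intervals of all 8 tubulins lay between the dotted lines.

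Levels per transcript length, in FPKM, put the 10 mRNAs of the vector samples in the order TUBA1B (629.2 ± 26.5), TUBB (428.0 ± 13.5), TUBB4B (358.8 ± 12.5), TUBA1C (311.4 ± 21.0), STMN1 (214.5 ± 3.37), TUBG1 (39.7 ± 1.32), TUBA1A (30.6 ± 1.97), TUBB3 (11.4 ± 0.134), STMN3 (9.04 ± 0.764) and TUBB2A (8.21 ± 1.21), each as mean ± SD of n = 2. Only the neighbours STMN3 and TUBB2A overlapped between samples. In shCHD7_2, STMN1 was at 85.9 ± 2.70 FPKM and kept its place between TUBA1C (328.2 ± 5.81) and TUBG1 (42.4 ± 2.43), and the ranges of TUBB and TUBB4B overlapped, as did those of TUBB2A and STMN3.

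Within the alpha-tubulin class, TUBA1B made up 62.0 ± 0.478% of the summed FPKM in vector and 58.3 ± 0.755% in shCHD7_2. TUBA1C made up 30.7 ± 0.540% and 33.6 ± 0.497%. TUBA4A, which is not among the 10 genes, held 3.40% in vector and TUBA1A 3.02%, and the rows of TUBA8, TUBAL3, TUBA3D, TUBA4B and TUBA3E added little. The alpha-tubulin mRNA of RKO cells was therefore mostly TUBA1B and TUBA1C in both groups, and the near-identical sequences of these genes leave their split the less certain.

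Within the beta-tubulin class, TUBB made up 52.9 ± 0.104% of the summed FPKM in vector and 50.6% and 49.5% in the shCHD7_2 samples. TUBB4B made up 44.4 ± 0.0612% and 46.6 ± 0.894%, and TUBB3 and TUBB2A 1.42% and 1.01% in vector. In CPM, which does not divide by transcript length, TUBB took 66.2% of beta-tubulin in vector. TUBG1 made up 74.8% of gamma-tubulin FPKM in vector and 76.4% in shCHD7_2, the rest being TUBG2.

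**Figure D3:**
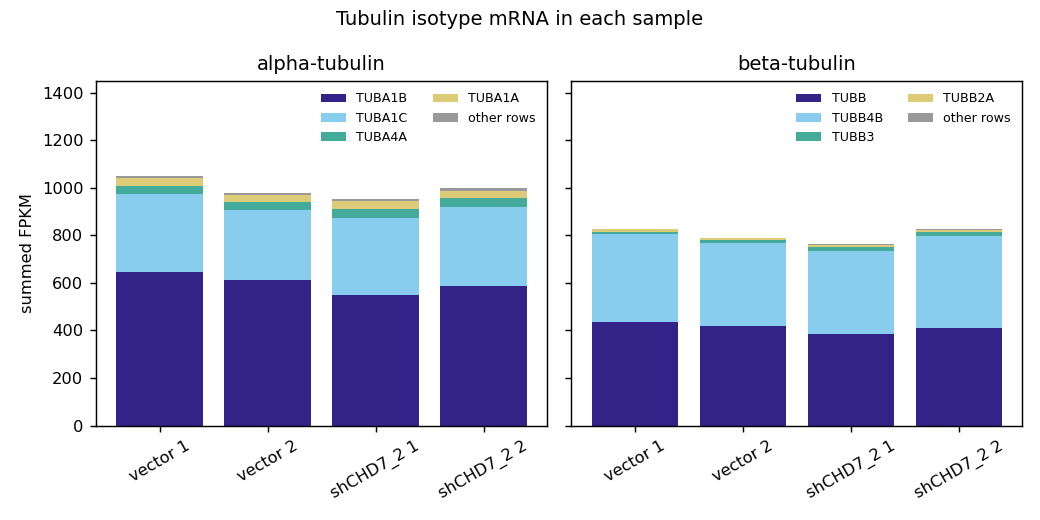
Summed FPKM of the alpha-tubulin rows and of the beta-tubulin rows in each of the 4 samples, stacked by isotype. TUBA1B and TUBA1C fill most of each alpha-tubulin bar, TUBB and TUBB4B most of each beta-tubulin bar, and the heights of the bars overlap between vector and shCHD7_2.

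Sums of CPM over a class do not depend on how reads were divided within it, though reads shared with rows outside the class are not covered. Alpha-tubulin CPM, over 9 rows, summed to 1661.8 and 1552.0 in vector and 1453.4 and 1541.2 in shCHD7_2, a log2 ratio of -0.10. Beta-tubulin CPM, over 7 rows, summed to 1683.1 and 1609.7 in vector and 1481.0 and 1612.7 in shCHD7_2, a log2 ratio of -0.09. The beta-tubulin sums overlapped between the groups and the alpha-tubulin sums did not. In FPKM, which was scaled by the authors, the log2 ratios were -0.06 and -0.03, and the sums of both classes overlapped. FPKM divide by transcript length, so their sums can depend on how reads were divided. The median difference over the genes fitted was also higher on this scale, 0.038 in limma on log2(FPKM + 1) against 0.001 in edgeR. The part of that shift in these sums was not tested. Alpha-tubulin FPKM divided by beta-tubulin FPKM was 1.27 and 1.24 in vector and 1.25 and 1.21 in shCHD7_2, so the classes kept nearly the same ratio.

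The ratio of summed alpha- and beta-tubulin FPKM to STMN1 FPKM was 8.66 and 8.33 in vector and 20.4 and 20.8 in shCHD7_2. The sum itself was 1878 and 1768 FPKM in vector and 1716 and 1824 FPKM in shCHD7_2, so the ratio moved through its STMN1 part. These are mRNA levels, and neither protein nor polymer was measured here.

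In the 3′ UTRs of these genes, 3 words of 7 bases were looked up. One was AGCTATT, another was GAAGCTA and the last was GCTATTA. The words had been picked out from these same 4 libraries for their presence in genes with lower levels in shCHD7_2, so their presence in STMN1 is a description, and their part in the values was not tested. They were searched on the transcript strand of the longest annotated 3′ UTR of each gene, and AGCTATT and GCTATTA overlap each other by all but 1 base. GAAGCTA ends in bases with which AGCTATT begins, so the 3 words are not independent. The sites found are shown with 8 bases on either side, 5′ to 3′ on the transcript, with the word in capitals.
STMN1, chr1:25900779-25900801, minus strand: tctaatgtAGCTATTtttcttgt
STMN1, chr1:25900901-25900923, minus strand: atattttaGAAGCTAatgtagga
TUBA1C, chr12:49273544-49273566, plus strand: ccatgcccAGCTATTtttatttc
TUBB, chr6:30724864-30724886, plus strand: aaatccagGCTATTAaagtcact
All lie in the last exon of their transcript. STMN1 held 2 of the words in its longest 3′ UTR, of 914 bases, and at least 1 word in 4 of its 5 annotated coding transcripts. TUBB held a word in 4 of 4 transcripts and TUBA1C in 1 of 3, and the other 7 genes held none. Of all tested genes with an annotated 3′ UTR, 22.3% held at least 1 of the words. The share was 68.4% of the genes called lower and 14.9% of those called higher. Median 3′ UTR lengths were 1360 bases for all, 1612 for lower and 1352.5 for higher. The words were picked for genes with lower levels, so the larger share in genes called lower was built in by that choice. Of tested genes with a 3′ UTR within a factor of 0.8 of the length of that of STMN1, 11.0% held a word. Which 3′ UTR the RKO cells use cannot be read from these tables.

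The rest of the tubulin pathway was described with 7 lists of 134 genes, of which 121 had a row and 112 were tested. MAPRE2, which encodes the microtubule end-binding protein EB2, was the only gene of the lists to be called, 1 of 112 beside 2.88% of all tested genes. It had 24.1 and 25.5 CPM in vector and 42.3 and 39.7 CPM in shCHD7_2, so both shCHD7_2 samples were higher. It rose by a log2 fold change of 0.72 (SE 0.0972, adjusted p = 2.21e-05, edgeR's quasi-likelihood test), or 1.65-fold. The call was lost only in limma on log2(FPKM + 1) without a filter on low values (0.68, adjusted p = 0.0726). At an adjusted p alone, 3 genes of the lists were higher and 4 lower, against 4.94% and 6.54% of all tested genes. The median of the 112 was -0.03, and 21 of the 112 had an unadjusted p under 0.05, against 25.4% of all tested genes.

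Of the other tubulins and stathmins, 8 of 17 were tested, none was called, and the median was 0.12, with 6 above 0 and 2 below. TUBA4A, an alpha-tubulin encoded without the terminal tyrosine, differed by 0.12 (adjusted p = 0.443) and TUBE1, epsilon-tubulin of centrioles, by -0.08 (adjusted p = 0.657). The point farthest to the right in this list, TUBB1 at 0.71, chosen after its value was seen, rested on 13 to 35 reads per sample.

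Tubulin is folded by prefoldin, the chaperonin CCT and the cofactors TBCA to TBCE before it joins a dimer. None of these and the autoregulation genes, 24 in all, was called, and the median was -0.08, with 17 below 0 and 7 above. CCT3 and CCT7, chaperonin subunits, differed by -0.08 each (adjusted p = 0.525 and 0.527). At an adjusted p alone, CCT8 fell by 0.33 (adjusted p = 0.0037) and TBCEL, a relative of TBCE, by 0.44 on the log2 scale (adjusted p = 0.00462); both were chosen after their values were seen. Of the autoregulation genes, TTC5 had 18.4 and 18.1 CPM in vector and 19.8 and 21.9 CPM in shCHD7_2, a difference of 0.19 (adjusted p = 0.311). SCAPER differed by -0.22 (adjusted p = 0.186) and CNOT11 by -0.04 (adjusted p = 0.812).

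The gamma-tubulin ring complex contains TUBG1, and augmin places the complex along existing microtubules. Of their 20 genes none was called, with a median of 0.03. MZT2A and MZT2B, small subunits of the ring complex that are close copies of each other and therefore uncertain, differed by 0.12 and 0.17 (adjusted p = 0.518 and 0.348). At an adjusted p alone the augmin subunit HAUS2 fell by 0.40 on the log2 scale (adjusted p = 0.00335), again chosen after its value was seen.

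Depolymerases and severing enzymes act, like stathmins, to shorten microtubules. None of the 12 tested was called, with a median of 0.04, and the mitotic depolymerase KIF2C differed by -0.03 (adjusted p = 0.853). Of 17 stabilisers and end-binding proteins, the median was 0.01, and beside MAPRE2 the adjusted p alone picked MAP1A (0.50, adjusted p = 0.0247) and MAPRE1 (0.25, adjusted p = 0.0292), both higher and both chosen after their values were seen. MAPRE1 encodes EB1, the most abundant end-binding protein, and went from 239.8 and 245.7 CPM to 298.0 and 279.0 CPM. Among 20 enzymes that modify tubulin none was called, with a median of -0.03; TTL, which returns tyrosine to alpha-tubulin, differed by 0.01 (adjusted p = 0.964) and TTLL12 by 0.10 (adjusted p = 0.502).

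Stathmin is inactivated by kinases such as CDK1, CDK2, PKA, CaMKs and MAP kinases. Of 11 tested kinase genes none was called, and the median was -0.06, with 8 below 0. MAPK3 differed by -0.07 (adjusted p = 0.671) and AURKB by -0.09 (adjusted p = 0.562). At an adjusted p alone CDK2 was lower, at 96.2 and 95.5 CPM in vector and 73.2 and 75.8 CPM in shCHD7_2 (log2 fold change -0.36, adjusted p = 0.00492), and was chosen after its value was seen.

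The 5 genes whose log2 levels over the 4 samples were nearest to those of STMN1, each set to its vector mean, were YWHAE, DEGS1, ANXA1, MBTPS1 and BORCS8-MEF2B, at root mean square distances of 0.0312, 0.0452, 0.0588, 0.0814 and 0.086 on the log2 scale. YWHAE, the 14-3-3 epsilon adapter, had 947.8 and 947.3 CPM in vector and 372.9 and 383.7 CPM in shCHD7_2 (log2 fold change -1.32). DEGS1, a ceramide desaturase, differed by -1.40 and ANXA1, annexin A1, by -1.34. MBTPS1, the site-1 protease, differed by -1.45, and BORCS8-MEF2B, a read-through row at about 2 CPM in vector that shares reads with its parent genes, by -1.54. With 4 samples in 2 groups this measure mainly finds genes with the same log2 fold change as STMN1, so their differences were fixed by the choice and are given with no test. Of the 3′ UTR words, YWHAE held GAAGCTA, MBTPS1 AGCTATT and DEGS1 both AGCTATT and GCTATTA, whereas ANXA1 and BORCS8-MEF2B held none. At least 1 word was present in 2 of 5 annotated coding transcripts of YWHAE, 1 of 2 of MBTPS1 and 2 of 2 of DEGS1.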

How the data were processed

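Per the labels, polyadenylated RNA of 4 RKO samples was sequenced, 2 vector and 2 shCHD7_2. The submitters' processing notes name Bowtie2, RSEM, DESeq2 and hg38, with no versions; the annotation and the use of strand are not given in the sources used here. The authors deposited estimated counts per gene (expected counts, not normalized, reads matching several genes being divided between them) and FPKM, which the authors had normalized for length and depth. In all, 13.6% to 14.7% of the deposited count values per sample were not whole.

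The counts were rounded. In R 4.3.3, edgeR 4.0.16 filtered genes with filterByExpr, scaled libraries by TMM and ran its quasi-likelihood test, with p-values adjusted by Benjamini-Hochberg over 11955 genes. CPM use the scaled library sizes; the biological coefficient of variation was 0.0579. Standard errors come from the F statistic. The 95% intervals use its total degrees of freedom, which add a part pooled over genes to the residual ones. The 10 genes, the pathway lists and the 3′ UTR words were chosen with earlier results of these data known. Named were the 10 genes, CHD7, each called gene of a list or, with none, its 2 tested genes of highest FPKM, and the 5 genes nearest to STMN1 (log2 CPM, prior count 2); the value of 1 gene under this rule is not reported here. Alternatives were DESeq2 1.42.0, its size factors in edgeR, no filter, a replicate block, limma 3.58.1 on log2(FPKM + 1) with a minimum mean FPKM of 1 or none, or on log2(FPKM + 0.1), no fold threshold, and leaving out each sample. Between samples of 1 group, counts differed by more than sampling noise (chi-square per gene 3.94 in vector and 6.05 in shCHD7_2). With 2 samples against 2, permutation p-values (two-sided) start at 0.333. The script was tested on simulated counts. Sequences and coordinates are from GENCODE 29 on GRCh38, matched by symbol for all 10 genes.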

Additional observations from a re-analysis of the deposited data

How the results depend on the processing

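The log2 fold change of STMN1, which chose the 10 genes and is no independent support, ranged from -1.40 to -1.31 over the alternatives, and no tubulin was called in any. Of all genes, 344 were called (180 higher, 164 lower), 219 by DESeq2 (91 higher, 128 lower), 141 without a filter (53 and 88), 172 by limma on log2(FPKM + 1) (86 and 86), 23 by the same limma fit without a filter (6 and 17), 1373 with no fold threshold (591 and 782) and 308 to 380 with 1 sample left out. In the lists, 0 genes were called by limma without a filter, where MAPRE2 had an adjusted p of 0.0726, and 7 with no fold threshold. With 1 sample left out the lists gave 1 to 2 calls, the second being ATAT1, an alpha-tubulin acetyltransferase, without vector replicate 1 (-0.68, adjusted p = 0.0317) or without shCHD7_2 replicate 2 (-0.64, adjusted p = 0.0452). CHD7 was under the 1.5-fold threshold in limma, at -0.51 with a pseudocount of 1 (adjusted p = 0.0054), -0.58 with 0.1 (0.00575) and -0.51 without a filter (0.104). BORCS8-MEF2B lost its call in DESeq2 (adjusted p = 0.106), without a filter (0.0656) and in limma without a filter (0.0637). The sign changed for KIF2C in limma (0.013, 0.014 and 0.013), where the medians over the genes fitted were 0.038, 0.042 and 0.022 in the same order. It changed with 1 sample left out for STMN3 (-0.335 to 0.038), TUBA1C (-0.033 to 0.102), TUBB4B (-0.084 to 0.084), TUBG1 (-0.014 to 0.113), TUBE1 (-0.206 to 0.032), MZT2A (-0.055 to 0.268), MZT2B (-0.072 to 0.378), TTL (-0.065 to 0.075) and MAPK3 (-0.148 to 0.005). None of these genes was called. With 1 sample left out, an arm of 1 is assumed to vary like the other. In CPM the vector share of TUBA1B was 63.3% and of TUBB 66.2%. Except where said, the cause was not tested.

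The samples share replicate numbers, and deviations of same-numbered samples correlated at -0.198 over 11955 genes. With 2 samples per group, crossing the numbers only changes the sign of this value, so it cannot decide whether samples were paired. The numbers were not taken as pairs in the main fit. With the replicate as a block, 329 genes were called, with the pairing crossed, an alternative added after seeing the data, 423, and in both the calls among the 10 genes and the lists stayed at 1 each. With 2 samples per group, differences well under 1.5-fold in genes such as TUBB2A and TUBB3 are not resolved.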
